A study of Mus musculus with 24 samples.

Results

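The effect of BCR-ABL was measured in mouse LSKs that lack miR-142. LSKs are bone marrow cells that carry no lineage markers and are positive for Sca-1 and c-Kit, the fraction that holds stem cells and early progenitors. BC CML LSKs (blast crisis-like chronic myeloid leukemia, genotype label Mir142 KO BCR-ABL+) were compared with miR-142 KO LSKs, so that both groups share the deletion of miR-142 and differ in BCR-ABL and its driver transgene. Members were all libraries of these groups by their genotype labels, 12 of the 24 in the series, with 3 females and 3 males in each group of 6. The other 12 were the WT and CP CML (chronic phase, BCR-ABL with intact miR-142) groups. BCR-ABL came from a tetracycline-off transgene driven through the SCL promoter, which is active in stem and progenitor cells, in C57BL/6 mice sampled 2 weeks after tetracycline was withdrawn. The BCR-ABL mice also carried the SCLtTA driver transgene and were kept on tetracycline until then. The study's methods do not say whether the miR-142 KO mice were given tetracycline. The labels give no ages, and they do not say whether each library is 1 mouse, so the p-values measure the spread between these libraries. The study's methods give fewer mice than libraries for each group. Of 24091 genes, 13520 had enough counts to be tested.

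BCR-ABL is a fusion tyrosine kinase that is always active. It recruits adaptors such as GRB2, GAB2 and CRKL and signals through RAS and ERK, PI3K, and STAT5, whose targets include feedback inhibitors of cytokine receptors. In the marrow it drives the overproduction of myeloid cells, and the LSK fraction contains the cells that start the disease. miR-142 is a microRNA of blood cells, and its arms bind target transcripts mainly through the seed, bases 2 to 8. The mature arms are shown because the gene that encodes them is deleted in all 12 libraries compared. They lie on the plus strand of chromosome 11 (GRCm38.p6, RefSeq), the 5p arm from 87756867 to 87756887 and the 3p arm from 87756903 to 87756925, and capitals mark the seed.
mmu-miR-142a-5p: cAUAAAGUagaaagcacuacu
mmu-miR-142a-3p: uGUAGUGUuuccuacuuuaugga

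The libraries held 22595352 to 24111549 counts in miR-142 KO and 20206360 to 24687077 in BC CML. Mir142 had 0 counts in all 12, against 68 to 153 in each library with an intact gene. Levels are given as CPM, a gene's counts relative to the library's total, scaled between libraries by TMM. The labelled sexes matched the levels of Xist, at 2107 to 3235 CPM in the 6 females and 0.55 to 4.72 CPM in the 6 males, and the Y-linked Ddx3y reached 1.65 CPM in BC CML library 1, a female, against at most 0.15 CPM in the other 5. The genes of the sort were present: Kit was at 662 to 972 CPM (median 779) in miR-142 KO and 746 to 883 CPM (median 803) in BC CML, and Ly6a, which encodes Sca-1, was at 51.5 to 155 CPM (median 81.5) in miR-142 KO and 94.3 to 135 CPM (median 106) in BC CML, and neither passed the test (adjusted p = 0.94 and 0.34). Bcr (adjusted p = 0.19), Abl1 (0.96) and Tal1, the SCL gene (0.79), were not past the threshold either, and reads of the transgene were not analysed separately. miR-142 KO library 3 stood apart from its group: it was the highest or the lowest of the 6 in 60% of the tested genes, against 20.5% to 36.2% in the other 5. Counts of several lists are therefore also given without it. The 16 tested immediate early genes, which respond to handling of cells, summed to 1994 to 12784 CPM in miR-142 KO and 4421 to 8687 CPM in BC CML, and 0 of the 16 passed the test.

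With BCR-ABL, mast cell proteases, chemokines and a pair of cell cycle inhibitors rose from near 0, while most listed erythroid and platelet genes and several eosinophil genes fell. At an adjusted p below 0.05, edgeR's quasi-likelihood test called 5358 of the 13520 genes (39.6%), of which 2747 were higher in BC CML (20.3% of those tested) and 2611 were lower (19.3%). Most of these changes were small, and 828 of them reached 1 on the log2 scale, 436 higher and 392 lower. The median log2 fold change of all tested genes was -0.02. The 6 values of a group lay entirely above or below those of the other in 1428 genes (10.6%), of which 822 were higher in BC CML. Without miR-142 KO library 3 the test called 6471 genes.

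**Figure D1:**
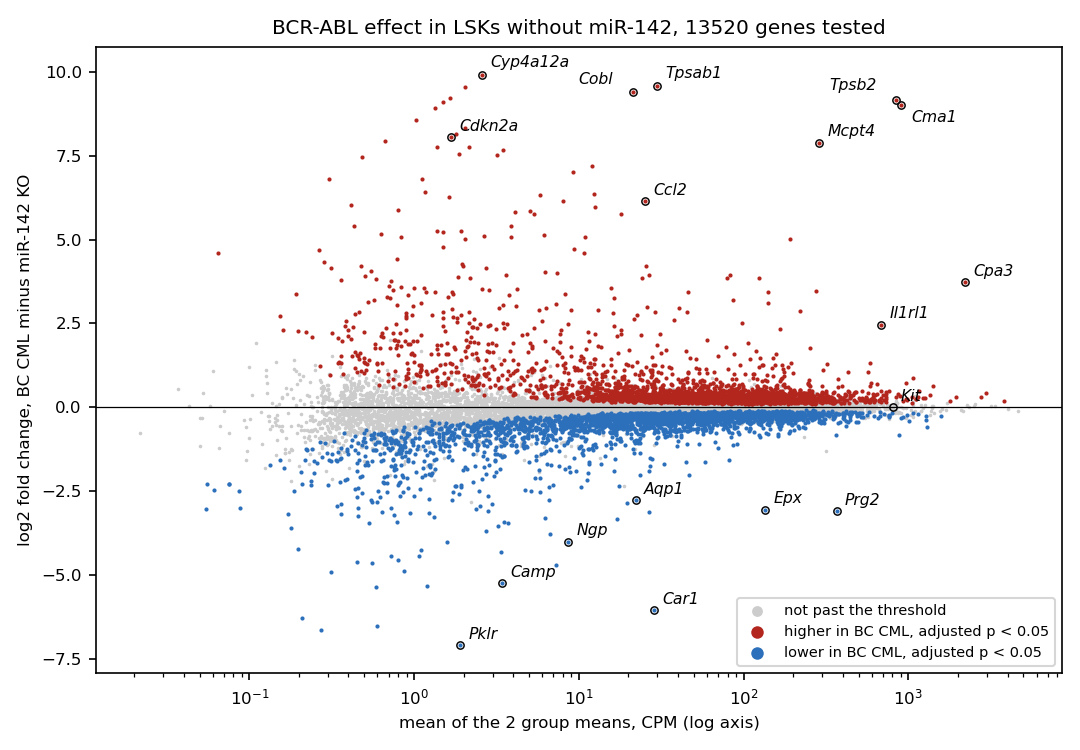
Each point is 1 of the 13520 tested genes, with the mean of the group means in CPM on a log x axis and the log2 fold change (BC CML minus miR-142 KO) on the y axis; red and blue points are past an adjusted p of 0.05. The mast cell proteases Cma1, Tpsb2 and Mcpt4 stand at the upper right, near 8 to 9 on the log2 scale, and the red cell gene Car1 stands at the lower edge.

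The genes with the largest rises were led by some that were silent without BCR-ABL. Cyp4a12a, a cytochrome P450 that hydroxylates fatty acids, was at 0 in all 6 miR-142 KO libraries and at 1.61 to 11.7 CPM (median 4.37) in BC CML. Set against the limit of 3 counts over the group that a count of 0 allows, it was at least 246-fold higher. Its neighbour Cyp4a12b is a near-identical copy that may share its reads, and was likewise at 0 in miR-142 KO and at 0.907 to 6.72 CPM (median 2.203) in BC CML. The limits, like all intervals given, cover counting error only.

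Other genes at 0 in miR-142 KO were Svs2 (at least 189-fold higher) and Wfdc12 (at least 123-fold), which encode secreted proteins from 1 gene cluster of chromosome 2, the retroviral element Erv3 (at least 142-fold) and Iqsec3, an exchange factor for ARF GTPases (at least 95.1-fold). Cobl, which nucleates actin filaments, was at 0 to 0.221 CPM (median 0.0205) in miR-142 KO and 21.9 to 61.6 CPM (median 39.9) in BC CML, without overlap, and rose by 9.39 ± 0.56 on the log2 scale (± SE throughout, adjusted p = 2.6e-11). Grin2c, an NMDA receptor subunit, had 1 count over the 6 miR-142 KO libraries against 1.66 to 5.43 CPM (median 3.88) in BC CML, a ratio of 503 with a 95% counting interval of 89.9 to 19920.0. Mab21l1, a developmental gene of the eye, gave a ratio of 385 (68.7 to 15250.0).

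Among the genes that fell most were Pklr, the red cell pyruvate kinase, at 0.177 to 7.91 CPM (median 3.77) in miR-142 KO and 0 to 0.101 CPM (median 0) in BC CML (log2 change of -7.08 ± 0.89, adjusted p = 3.2e-06), and Gdf3, a TGF-beta family ligand, at 10.6 to 23.95 CPM (median 17.3) in miR-142 KO and 1.904 to 7.36 CPM (median 2.48) in BC CML (-2.38 ± 0.34, adjusted p = 1.7e-05). Their values did not overlap between the groups, although miR-142 KO library 3 had the lowest Pklr value of its group. Smaller falls without overlap were measured for Flt4, the receptor of lymphatic growth factors (-1.73 ± 0.42), Parm1 (-1.72 ± 0.25), the membrane trafficking gene Ehd3 (-1.51 ± 0.22), the GTPase of lymphocytes Gimap7 (-1.49 ± 0.34), the adhesion gene Dscam (-1.41 ± 0.38) and the collagen-modifying enzyme P3h2 (-1.32 ± 0.25).

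Genes of mast cells rose together, while those of eosinophils fell. Of 27 tested genes of a mast cell, basophil and eosinophil list, 17 were higher (63%) and 6 were lower (22.2%). The shares of all genes were 20.3% and 19.3%, and the list's median log2 fold change was 1.07. The summed level of the list was 1233 to 6055 CPM in miR-142 KO and 8203 to 16819.6 CPM in BC CML, and no member was at 0 in a whole group. In bulk libraries, more cells of a type and more RNA per cell cannot be told apart.

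The chymase Cma1, a protease stored in mast cell granules, was at 1.06 to 8.71 CPM (median 2.896) in miR-142 KO and 919 to 2784 CPM (median 1657) in BC CML, and its rise was 8.99 ± 0.48 (adjusted p = 7.2e-12). The chymase Mcpt4 was at 0.354 to 5.35 CPM (median 2.18) in miR-142 KO and 463 to 895 CPM (median 520.1) in BC CML (7.89 ± 0.36, adjusted p = 5.3e-13). The tryptase Tpsb2 was at 0.708 to 10.5 CPM (median 1.64) in miR-142 KO and 987 to 2331 CPM (median 1766) in BC CML (9.16 ± 0.59, adjusted p = 9.5e-11). Each of these was high in all 6 BC CML libraries and low in all 6 of miR-142 KO, with no overlap. The tryptase Tpsab1 is so close in sequence to Tpsb2 that reads may be split between them. It was at 0 to 0.177 CPM (median 0.0648) in miR-142 KO and 28.5 to 74.7 CPM (median 69.6) in BC CML (9.58 ± 0.53).

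Gzmb, a granzyme of killer and mast cells, was at 1.64 to 22.1 CPM (median 11.4) in miR-142 KO and 244 to 506 CPM (median 386) in BC CML (5.02 ± 0.41, adjusted p = 4.2e-09). The following members of the same list were chosen after their values were seen. Cpa3, the carboxypeptidase of mast cell granules, was at 141 to 502 CPM (median 264) in miR-142 KO and 2411 to 5566 CPM (median 4164) in BC CML (3.74 ± 0.31, adjusted p = 6.1e-09), so that it was expressed in the controls and higher in every BC CML library. Fcer1a, the IgE-binding chain of the IgE receptor, was at 6.198 to 98.4 CPM (median 46.2) in miR-142 KO and 291 to 698 CPM (median 507) in BC CML (3.47 ± 0.59), again without overlap. The signalling chain Ms4a2 (1.07 ± 0.39, adjusted p = 0.034) and Hdc, which makes histamine (0.99 ± 0.32, adjusted p = 0.018), rose less, with overlap. Hdc lost its call without BC CML library 5 (adjusted p = 0.062), and Ms4a2 without any 1 of 7 libraries (adjusted p up to 0.081, without miR-142 KO library 5).

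Mitf, a transcription factor of mast cells and melanocytes, was at 13.1 to 17.6 CPM (median 15.5) in miR-142 KO and 23.7 to 39.5 CPM (median 29.8) in BC CML (0.96 ± 0.14, adjusted p = 2.6e-05). Gata2, a factor of stem, mast and basophil cells that was also named after seeing its values, had a log2 change of 0.01 ± 0.12 (adjusted p = 0.97). The basophil proteases Mcpt8 (31.6 to 657 CPM (median 263) in miR-142 KO and 85.1 to 283 CPM (median 130.5) in BC CML, adjusted p = 0.26) and Prss34 (5.71 to 1132 CPM (median 417) in miR-142 KO and 77.8 to 320.4 CPM (median 150.2) in BC CML, adjusted p = 0.23), also named after seeing their values, did not pass the test. 

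Prg2, the major basic protein of eosinophil granules, was at 161 to 1271 CPM (median 614) in miR-142 KO and 34.2 to 151 CPM (median 72.2) in BC CML, and fell by 3.098 on the log2 scale (adjusted p = 0.003). Epx, the eosinophil peroxidase, was at 65.8 to 440.3 CPM (median 232) in miR-142 KO and 11.2 to 60.3 CPM (median 24.1) in BC CML and fell by 3.05 (adjusted p = 0.0032). Both were higher in every miR-142 KO library than in every BC CML library, but varied several fold within miR-142 KO, where libraries 1, 2 and 6 had the high values. The eosinophil ribonucleases Ear1, Ear2 and Ear6, similar copies that may share reads, and Prg3 made up the other 4 members that fell. Ear1, Ear2 and Ear6 each lost the call in most leave-one-out fits (adjusted p up to 0.088, 0.099 and 0.089, each without miR-142 KO library 2). The count of 6 dropped to 3 without each of miR-142 KO libraries 1, 2 and 6 and BC CML libraries 1, 2, 3 and 5.

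**Figure D2:**
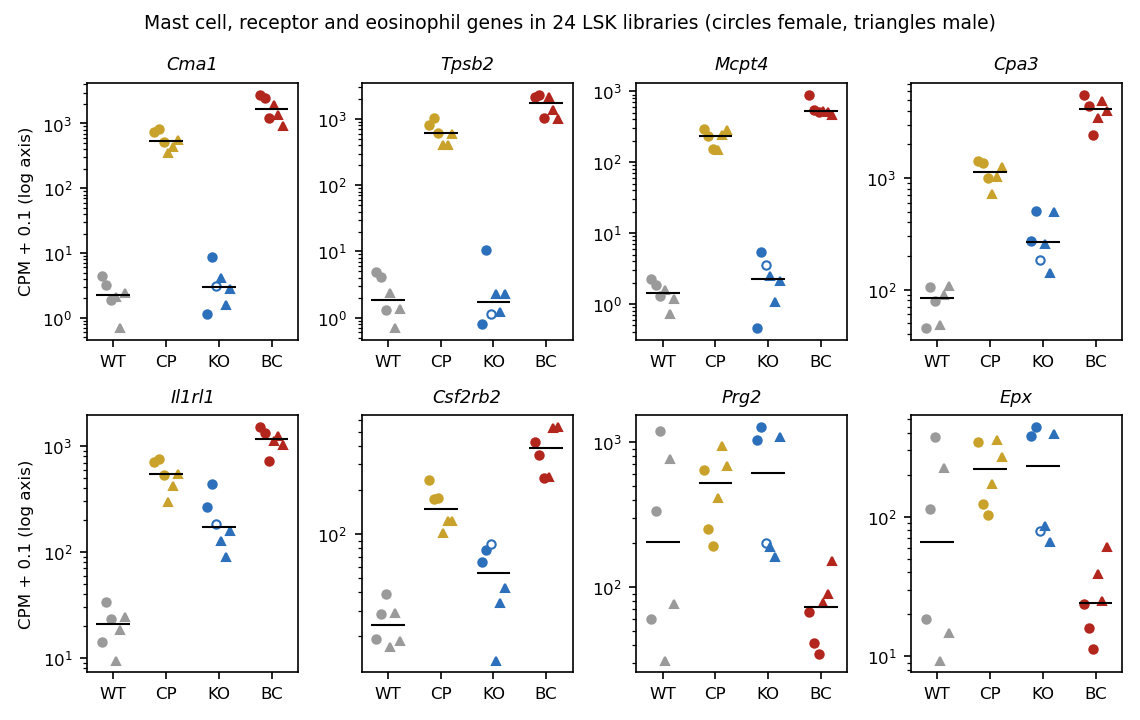
Each panel is 1 gene, with CPM + 0.1 on a log y axis for the 6 libraries of WT, CP CML (CP), miR-142 KO (KO) and BC CML (BC); circles are females, triangles males, bars group medians, and the open symbol is miR-142 KO library 3. Cma1, Tpsb2, Mcpt4 and Cpa3 are higher in every BC CML library than in every miR-142 KO library, and Prg2 and Epx are lower.

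Several of the protease genes that rose sit in clusters of the genome, while Cpa3 lies apart from these on chromosome 3. Coordinates are those of mm10. Cma1 (chromosome 14, 55941451 to 55944675), Mcpt4 (56059744 to 56062310) and Gzmb (56258858 to 56262260) belong to a chymase and granzyme cluster, and the other genes of the cluster were looked up after these values were seen. Mcpt1 (5.08 ± 0.68), Mcpt2 (6.37 ± 0.55), Cma2 (5.17 ± 0.50) and the pseudogene Mcpt-ps1 (6.33 ± 0.52) rose too, and reads may be shared among them. Ctsg, the cathepsin of neutrophil granules at the same cluster, was at 682 to 821 CPM (median 755) in miR-142 KO and 1039 to 1627 CPM (median 1446) in BC CML and rose by 0.89 ± 0.25, while Mcpt8, in the same cluster, did not pass. On chromosome 17, Tpsab1 (25343245 to 25345562) and Tpsb2 (25366333 to 25368092) lie with another tryptase, Tpsg1, which was at 0 to 0.398 CPM (median 0.1105) in miR-142 KO and 10.2 to 25.9 CPM (median 19.7) in BC CML (7.003 ± 0.50, adjusted p = 4.9e-10).

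Promoters of the mast cell, basophil and eosinophil list were read for GATA letters, since factors of this family act in mast cells and many of the list's genes changed. Windows of 300 bases (250 before to 50 after each start, GRCm38.p6, RefSeq) were available for 24 of its genes, in 30 windows. AGATAA or TGATAA, on either strand, was in 14 of the 30 windows (46.7%) and in 18.6% of all 32851 promoter windows. The windows of Mcpt4 (minus strand, chr14:56062261-56062560) and Cpa3 (minus strand, chr3:20242132-20242431) are shown as examples, with the match in capitals, 103 bases before the start for Mcpt4 and 46 for Cpa3. A match is a description of the letters and not evidence of binding.
Mcpt4: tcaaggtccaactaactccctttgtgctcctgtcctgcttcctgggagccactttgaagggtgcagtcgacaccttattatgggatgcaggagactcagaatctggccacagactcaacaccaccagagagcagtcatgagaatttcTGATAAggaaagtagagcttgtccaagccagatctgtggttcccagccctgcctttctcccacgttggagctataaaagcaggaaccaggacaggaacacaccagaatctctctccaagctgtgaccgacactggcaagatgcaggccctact
Cpa3: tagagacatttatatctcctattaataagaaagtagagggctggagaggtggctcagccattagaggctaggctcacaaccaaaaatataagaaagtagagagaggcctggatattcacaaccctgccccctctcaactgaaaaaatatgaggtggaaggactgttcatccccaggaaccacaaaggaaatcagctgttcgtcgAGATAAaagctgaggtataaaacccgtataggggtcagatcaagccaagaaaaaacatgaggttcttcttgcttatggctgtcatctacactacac

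STAT5 targets were called higher about as often as all genes. Of 14 tested STAT5 targets and feedback genes, 3 were higher (21.4%, against 20.3% of all genes) and 0 lower, and 5 were higher without miR-142 KO library 2. Socs2, a suppressor of cytokine signalling, was at 3.45 to 9.37 CPM (median 4.54) in miR-142 KO and 13.4 to 27.01 CPM (median 21.6) in BC CML, without overlap (1.84 ± 0.27, adjusted p = 2.0e-05). Cish, the first described member of this family, was at 9.82 to 30.1 CPM (median 17.02) in miR-142 KO and 25.2 to 51.4 CPM (median 36.01) in BC CML (1.05 ± 0.22, adjusted p = 8.0e-04), and Socs3 at 9.52 to 113 CPM (median 44.1) in miR-142 KO and 90.4 to 175 CPM (median 97.9) in BC CML (1.13 ± 0.38, adjusted p = 0.02). The groups overlapped for both, and Socs3 lost its call without BC CML library 5 (adjusted p = 0.056).

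Socs1 (0.57 ± 0.26, adjusted p = 0.08), the kinase gene Pim1 (0.26 ± 0.15, 0.17), the survival gene Bcl2l1 (-0.07 ± 0.06, 0.36) and the cytokine gene Osm (0.30 ± 0.35, 0.51) were not past the threshold. The Cish promoter is shown because it has known paired STAT5 sites. The letters TTCNNNGAA, on either strand, were in 4 of 15 windows of the list's 11 genes (26.7%) and in 8.3% of all windows. In the window of Cish (plus strand, chr9:107296409-107296708) they occur at 0 and 11 bases after the start, in capitals.
Cish: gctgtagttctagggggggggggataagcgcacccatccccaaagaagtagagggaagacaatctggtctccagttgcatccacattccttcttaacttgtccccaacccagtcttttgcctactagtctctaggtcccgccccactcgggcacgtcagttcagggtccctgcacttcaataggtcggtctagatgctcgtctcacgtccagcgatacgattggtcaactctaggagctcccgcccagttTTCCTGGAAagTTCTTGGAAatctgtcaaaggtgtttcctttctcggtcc

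Of 12 tested JAK kinases, STAT factors and the shared receptor chain Il6st, 0 were higher and 5 lower (41.7%), against 20.3% and 19.3% of all genes. Stat5a was at 141 to 183 CPM (median 162) in miR-142 KO and 126 to 138 CPM (median 131) in BC CML (-0.30 ± 0.05, adjusted p = 1.1e-04), without overlap, and Stat5b at 212 to 227 CPM (median 219) in miR-142 KO and 173 to 213 CPM (median 185) in BC CML (-0.23 ± 0.04, adjusted p = 1.8e-04). The kinase genes Jak2 (-0.41 ± 0.08) and Jak1 (-0.14 ± 0.04) fell as well, while Stat3 (0.11 ± 0.06, adjusted p = 0.19) did not pass.

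Adaptors and phosphatases of BCR-ABL were called higher about as often as all genes, and lower less often. Of 28 tested, 6 were higher (21.4%, against 20.3% of all genes) and 1 lower (3.57%, against 19.3%), with a median of 0.02. Gab2, which carries the signal to PI3K and RAS, was at 76.4 to 100.4 CPM (median 83.5) in miR-142 KO and 108 to 118 CPM (median 114) in BC CML (0.41 ± 0.08, adjusted p = 4.0e-04), and the SRC-family kinase Lyn at 96.7 to 108 CPM (median 102) in miR-142 KO and 113 to 128 CPM (median 121) in BC CML (0.25 ± 0.07, adjusted p = 0.0069), both without overlap. Dok2, an adaptor that restrains RAS, was at 24.4 to 39.7 CPM (median 29.5) in miR-142 KO and 16.3 to 23.4 CPM (median 19.5) in BC CML and fell by 0.64 (adjusted p = 5.5e-04). The phosphatases Ptpn1 (0.31 ± 0.06) and Ppp2ca, a catalytic subunit of PP2A (0.26 ± 0.06), rose with overlap.

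Of 19 ERK targets and feedback genes, 3 rose and 3 fell (15.8% each, against 20.3% and 19.3% of all genes). Dusp4, a phosphatase that turns ERK off, was at 0.6799 to 2.17 CPM (median 1.46) in miR-142 KO and 2.72 to 8.04 CPM (median 4.48) in BC CML (1.85 ± 0.27, adjusted p = 2.5e-05), without overlap. Phlda1 (1.16 ± 0.30) and the RAS inhibitor Spred1 (0.31 ± 0.12) rose too, and Spred1 lost its call under most alternatives (adjusted p up to 0.14, without BC CML library 1). Ccnd1, cyclin D1, was at 64.9 to 133 CPM (median 89.2) in miR-142 KO and 47.5 to 73.6 CPM (median 57.8) in BC CML and fell by 0.66 (adjusted p = 0.0019), and Dusp6 fell by 0.49 (adjusted p = 0.028, or 0.094 without miR-142 KO library 2, 0.055 without BC CML library 2 and 0.0563 in a fit of the 12 libraries alone). The count of lower genes was 1 without miR-142 KO library 2 or BC CML library 2.

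Receptor genes that rose included the shared beta chains of the IL-3, GM-CSF and IL-5 receptors. Of 28 cytokine and growth factor receptors tested, 7 were higher (25%) and 5 lower (17.9%), close to the 20.3% and 19.3% of all genes. Csf2rb2, the beta chain specific for IL-3 in mice, was at 13.6 to 85.2 CPM (median 53.9) in miR-142 KO and 244 to 541 CPM (median 387) in BC CML (2.88 ± 0.34, adjusted p = 1.4e-06). Csf2rb, the common beta chain, was at 104 to 277 CPM (median 183) in miR-142 KO and 352 to 516 CPM (median 486) in BC CML (1.31 ± 0.18, adjusted p = 1.4e-05). These neighbours on chromosome 15 are close copies whose reads may be split, and in both every BC CML value was above every miR-142 KO value. Il1rl1, the receptor for IL-33, was at 90.4 to 436 CPM (median 171) in miR-142 KO and 729.8 to 1518 CPM (median 1176) in BC CML (2.46 ± 0.33, adjusted p = 6.8e-06). The interferon gamma receptor chain Ifngr2 (0.64 ± 0.08) and the TGF-beta receptor kinase Tgfbr1 (0.67 ± 0.09) also rose without overlap.

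Of 25 cytokines, chemokines and growth factors tested, 9 were higher (36%) and 3 lower (12%), against 20.3% and 19.3% of all genes. The median of 0.30 ran from 0.13 (without BC CML library 5) to 0.51 (without miR-142 KO library 2). The count of lower genes was 5 without miR-142 KO library 3 and 6 without BC CML library 3. Ccl2, which attracts monocytes, was at 0.205 to 1.06 CPM (median 0.729) in miR-142 KO and 26.3 to 76.6 CPM (median 48.8) in BC CML (6.15 ± 0.34, adjusted p = 9.5e-12), and its chromosome 11 neighbour Ccl7, of like function, had 1 count over the miR-142 KO libraries and was at 1.92 to 6.85 CPM (median 3.54) in BC CML (ratio 568, 95% counting interval 101 to 22460.0). Il13, a cytokine of type 2 immunity that mast cells can make, was at 0.0425 to 1.06 CPM (median 0.243) in miR-142 KO and 2.72 to 8.15 CPM (median 4.57) in BC CML (3.52 ± 0.46, adjusted p = 4.8e-06). All 3 were separate between the groups. Ccl5, a chemokine of T and NK cells on the same chromosome, went the other way, at 1.396 to 8.93 CPM (median 5.67) in miR-142 KO and 0.377 to 0.908 CPM (median 0.508) in BC CML (-3.08 ± 0.40, adjusted p = 5.7e-06). Angpt1, a ligand made by stem cells for the receptor TIE2, was at 366 to 563 CPM (median 446) in miR-142 KO and 205 to 325 CPM (median 262) in BC CML and fell by 0.82 (adjusted p = 9.9e-05), without overlap.

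Of 18 surface markers of CML stem cells, 3 rose (16.7%) and 5 fell (27.8%), against 20.3% and 19.3% of all genes. Cd33, a lectin of myeloid cells, was at 10.6 to 24.01 CPM (median 15.1) in miR-142 KO and 26.4 to 42.7 CPM (median 36.7) in BC CML (1.21 ± 0.18, adjusted p = 3.6e-05), and the Fc receptor Fcgr2b at 52.95 to 73.9 CPM (median 66.8) in miR-142 KO and 94.6 to 130.4 CPM (median 115) in BC CML (0.84 ± 0.14), both without overlap. Dpp4, also known as CD26, was at 38.8 to 48.4 CPM (median 40.8) in miR-142 KO and 21.9 to 36.2 CPM (median 27.8) in BC CML and fell by 0.56 (adjusted p = 9.6e-04). Cd34 (-0.18 ± 0.05) and the scavenger receptor Cd36 (-2.08 ± 0.66) fell with overlap, and Cd36 lost its call without miR-142 KO library 1 (adjusted p = 0.064). The count of lower genes was 2 without miR-142 KO library 1 and 3 without BC CML library 1 or 4.

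Red cell genes fell more than any other list by its median. Of 25 erythroid genes tested, 0 were higher and 20 were lower (80%), with a median log2 fold change of -2.09. Car1, carbonic anhydrase of early red cells, was at 2.12 to 105 CPM (median 59.6) in miR-142 KO and 0.424 to 2.22 CPM (median 0.5996) in BC CML (-6.04 ± 0.71, adjusted p = 1.3e-06). The single overlap came from miR-142 KO library 3, whose 2.12 CPM lay among the BC CML values. The water channel Aqp1 was at 11.3 to 56.9 CPM (median 41.01) in miR-142 KO and 3.67 to 7.36 CPM (median 5.53) in BC CML (-2.77 ± 0.31, adjusted p = 5.8e-07), without overlap.

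The blood group gene Ermap (-4.71 ± 0.64) and the erythroid master factor Klf1 (0.531 to 8.35 CPM (median 4.87) in miR-142 KO and 0.389 to 1.82 CPM (median 0.616) in BC CML; -2.63 ± 0.46, adjusted p = 1.8e-04) fell as well. Hemoglobin transcripts were scarce in both groups: Hba-a2 (0.255 to 1.104 CPM (median 0.686) in miR-142 KO and 0.389 to 1.31 CPM (median 0.796) in BC CML, adjusted p = 0.72) and Hbb-bs (1.02 to 5.39 CPM (median 1.41) in miR-142 KO and 0.0432 to 1.36 CPM (median 0.5099) in BC CML, adjusted p = 0.064), named after seeing their values, did not pass. The summed list was at 573 to 840.3 CPM in miR-142 KO and 419.8 to 572 CPM in BC CML. Without miR-142 KO library 3, 22 fell and 1 rose, with a median of -2.31. Without miR-142 KO library 2, 19 fell and 0 rose, with a median of -1.87.

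Genes of megakaryocytes and platelets fell too. Of 27 tested, 1 was higher and 19 were lower (70.4%), with a median of -1.09. The lower genes numbered 21 without miR-142 KO library 3 and 17 without BC CML library 4. Pf4, platelet factor 4, was at 3.54 to 98.4 CPM (median 54.6) in miR-142 KO and 3.2997 to 9.03 CPM (median 5.26) in BC CML (-3.13 ± 0.50, adjusted p = 5.8e-05). Gp9, a subunit of the von Willebrand factor receptor, was at 6.72 to 8.58 CPM (median 7.05) in miR-142 KO and 2.63 to 4.44 CPM (median 3.64) in BC CML (-1.05 ± 0.14, adjusted p = 9.0e-06), and Tubb1, the beta tubulin of platelets, at 0.796 to 2.08 CPM (median 1.303) in miR-142 KO and 0.0432 to 0.5104 CPM (median 0.266) in BC CML (-2.25 ± 0.36, adjusted p = 5.9e-05). Gp9 and Tubb1 were separate between the groups, while in Pf4 library 3 alone of miR-142 KO reached down into the BC CML range. Itga2b (CD41), a megakaryocyte and progenitor integrin, was at 178 to 334 CPM (median 236) in miR-142 KO and 192 to 295 CPM (median 231) in BC CML and did not pass (-0.04 ± 0.14, adjusted p = 0.87).

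Some regulators of these lineages fell, while Tal1, given above, did not pass. Zfpm1 (FOG1), the cofactor of GATA1, was at 82.8 to 144 CPM (median 118) in miR-142 KO and 48.5 to 65.3 CPM (median 52.04) in BC CML (-1.12 ± 0.10, adjusted p = 3.5e-08), without overlap, and Gfi1b, a repressor needed in both lineages, was at 16.5 to 37.4 CPM (median 33.2) in miR-142 KO and 10.1 to 18.7 CPM (median 11.1) in BC CML (-1.25 ± 0.23, adjusted p = 3.0e-04). Gata1, named after its values were seen, was at 13.7 to 35.9 CPM (median 29.7) in miR-142 KO and 12.9 to 18.3 CPM (median 17.7) in BC CML (-0.73 ± 0.18, adjusted p = 0.0032). Of 33 stem and myeloid transcription factors tested, 5 were higher (15.2%) and 15 lower (45.5%), against 20.3% and 19.3% of all genes. Etv6, a factor of stem cell maintenance, fell by 0.29 (adjusted p = 1.9e-04) without overlap.

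Stem cell genes fell more modestly. Of 30 genes of stem cell identity, 1 was higher and 16 were lower (53.3%), with a median of -0.35. Vwf, von Willebrand factor, which marks platelet-biased stem cells, was at 8.54 to 119.8 CPM (median 87.6) in miR-142 KO and 12.2 to 23.8 CPM (median 18.1) in BC CML (-2.02 ± 0.38, adjusted p = 2.9e-04). Slamf1 (CD150), used to sort long-term stem cells, was at 5.26 to 6.71 CPM (median 6.04) in miR-142 KO and 2.404 to 3.94 CPM (median 3.18) in BC CML (-0.94 ± 0.15, adjusted p = 5.1e-05). Meis1, a homeobox factor of stem cells, was at 235 to 269 CPM (median 242) in miR-142 KO and 173 to 222 CPM (median 188) in BC CML (-0.36 ± 0.08, adjusted p = 0.0013). Slamf1 and Meis1 did not overlap between groups. Myct1 (-0.56 ± 0.12) and the transcriptional coactivator Eya2 (-0.79 ± 0.15) fell with overlap, and 10 members of the list were lower without BC CML library 2.

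Of 20 genes of the Hoxa and Hoxb clusters, Meis and Pbx, 1 rose (5%) and 5 fell (25%), against 20.3% and 19.3% of all genes. The count that fell was 3 without miR-142 KO library 1 or BC CML library 1. The riser was Meis2, at 0 to 0.133 CPM (median 0.0852) in miR-142 KO and 2.07 to 4.05 CPM (median 2.74) in BC CML (5.24 ± 0.42, adjusted p = 3.7e-09). Hoxa3 (-0.48 ± 0.16) and Hoxb3 (-0.26 ± 0.09) fell with overlap and lost their calls without BC CML library 1 and miR-142 KO library 1 (adjusted p = 0.051 and 0.068), and Hoxa9, a factor of leukemic self-renewal, was at 76.8 to 89.9 CPM (median 80.96) in miR-142 KO and 74.4 to 99.6 CPM (median 81.9) in BC CML (0.02 ± 0.11, adjusted p = 0.92). Among 28 homing and adhesion genes, 5 rose (17.9%) and 8 fell (28.6%), against the same shares of all genes. Ccr2, the receptor of Ccl2, was at 15.4 to 73.1 CPM (median 64.2) in miR-142 KO and 223 to 313 CPM (median 284) in BC CML (2.33 ± 0.32, adjusted p = 8.6e-06). The fibronectin receptor chain Itga5 (0.32 ± 0.04), the sphingosine phosphate receptor S1pr2 (0.52 ± 0.09) and the cadherin Cdh2 (3.63 ± 0.63) rose, and the focal adhesion kinase Ptk2 fell by 0.60.

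**Figure D3:**
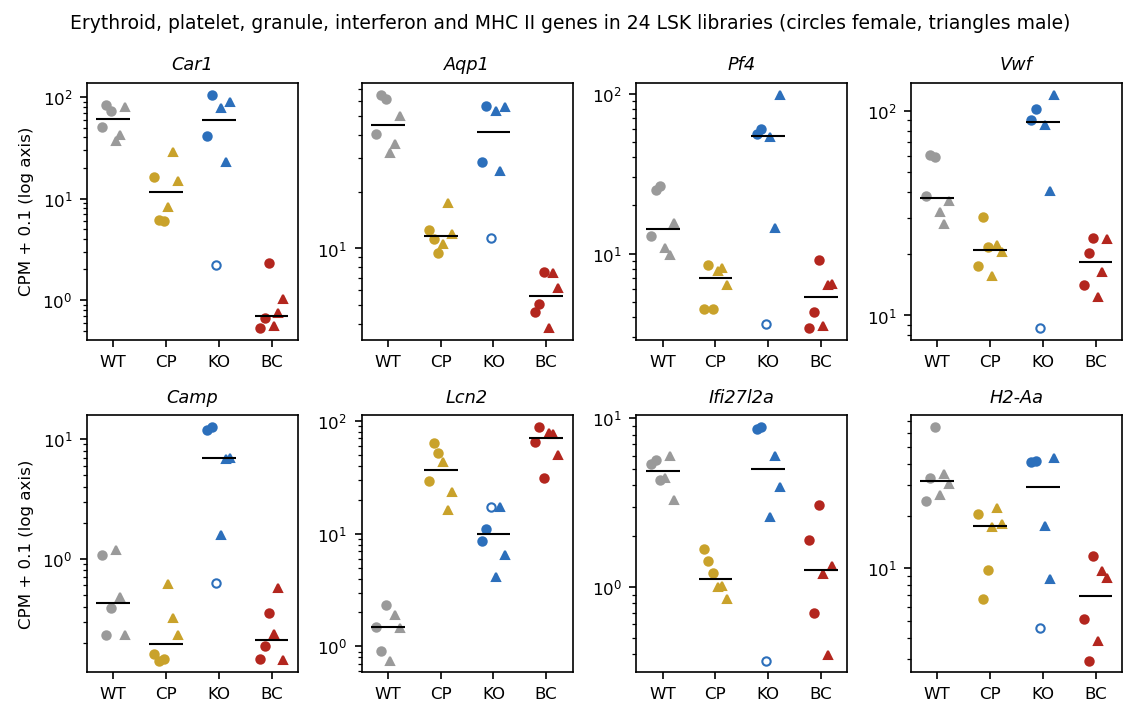
Each panel is 1 gene, with CPM + 0.1 on a log y axis for the 6 libraries of WT, CP CML (CP), miR-142 KO (KO) and BC CML (BC); circles are females, triangles males, bars group medians, and the open symbol is miR-142 KO library 3. Car1, Pf4, Vwf and Camp have low values in library 3, close to or below the BC CML values, while Lcn2 is higher in every BC CML library.

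More genes of early neutrophil granules rose than fell, and those of mature neutrophils went both ways. Of 21 genes of primary granules and neutrophil-primed progenitors, 11 were higher (52.4%) and 1 lower (4.76%), with a median of 0.60. The higher genes numbered 10 without miR-142 KO library 3 and 9 without BC CML library 4. Ctsc, the protease that activates granule enzymes, was at 90.5 to 123 CPM (median 115) in miR-142 KO and 232 to 320.1 CPM (median 282) in BC CML (1.32 ± 0.10, adjusted p = 1.4e-09). Srgn, the proteoglycan that packs granule proteins, was at 669 to 832 CPM (median 736) in miR-142 KO and 915 to 1442 CPM (median 1226) in BC CML (0.72 ± 0.11), and Hp, haptoglobin, at 47.5 to 114 CPM (median 80.1) in miR-142 KO and 173 to 279 CPM (median 235) in BC CML (1.58 ± 0.31, adjusted p = 5.0e-04). All 3 were higher in every BC CML library, and Gstm1 (0.79 ± 0.16) and the neutrophil factor Gfi1 (0.60 ± 0.13) rose with overlap. Mpo, myeloperoxidase, named after its values were seen, was at 1397 to 5118 CPM (median 4510.1) in miR-142 KO and 3294 to 4920.5 CPM (median 3739) in BC CML and did not pass (-0.06 ± 0.27, adjusted p = 0.88). The lowest Mpo value was that of miR-142 KO library 3.

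Of 20 genes of secondary granules and mature neutrophils, 6 were higher (30%) and 8 lower (40%), against 20.3% and 19.3% of all genes. The median was -0.08, and the summed list was at 112 to 306 CPM in miR-142 KO and 124 to 304 CPM in BC CML. Camp, the cathelicidin of secondary granules, was at 0.531 to 12.5 CPM (median 6.81) in miR-142 KO and 0.0424 to 0.468 CPM (median 0.111) in BC CML (-5.23 ± 0.75, adjusted p = 1.6e-05). Ngp, neutrophilic granule protein, was at 3.804 to 29.4 CPM (median 15.3) in miR-142 KO and 0.403 to 2.04 CPM (median 0.894) in BC CML (-4.001 ± 0.85, adjusted p = 9.1e-04). Lactoferrin, Ltf, was at 0.442 to 19.7 CPM (median 2.52) in miR-142 KO and 0.0453 to 0.766 CPM (median 0.192) in BC CML (-4.303 ± 0.79, adjusted p = 2.7e-04), and the calprotectin chain S100a9 was at 4.69 to 59.2 CPM (median 31.6) in miR-142 KO and 1.496 to 9.698 CPM (median 1.78) in BC CML (-3.34 ± 0.61, adjusted p = 2.4e-04). Lcn2, lipocalin 2, of the same granules, went the other way, at 4.04 to 17.1 CPM (median 9.77) in miR-142 KO and 30.9 to 88.5 CPM (median 71.2) in BC CML (2.602 ± 0.35, adjusted p = 8.3e-06). The activating receptor Trem1 also rose (1.61 ± 0.28, adjusted p = 1.3e-04). Camp, Ngp and Lcn2 did not overlap between the groups.

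Most genes of MHC class II, which presents antigens, fell. All 8 called genes of 10 in the MHC class II list were lower (80%), with a median of -0.80, and the summed list was at 151 to 369 CPM in miR-142 KO and 126 to 199.98 CPM in BC CML. H2-Aa, an MHC class II chain, was at 4.42 to 42.9 CPM (median 29.2) in miR-142 KO and 2.85 to 11.7 CPM (median 6.84) in BC CML (-1.91 ± 0.46, adjusted p = 0.0027), and Ciita, the activator of the class II genes, was at 1.77 to 7.38 CPM (median 5.07) in miR-142 KO and 1.18 to 2.77 CPM (median 1.58) in BC CML (-1.42 ± 0.31, adjusted p = 0.0012). H2-DMb1 and H2-DMb2, chains of the peptide-loading factor, did not pass (adjusted p = 0.39 and 0.29). No member was fully separate between the groups.

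Of 19 monocyte and dendritic cell genes, 3 rose (15.8%) and 5 fell (26.3%), against 20.3% and 19.3% of all genes. The median was -0.07, and the summed list was at 769.9 to 1724 CPM in miR-142 KO and 1720.2 to 2133 CPM in BC CML. Every BC CML sum but the lowest was above all miR-142 KO sums. The dendritic cell genes Clec9a (-3.68 ± 0.80), Xcr1 (-4.64 ± 1.10), Zbtb46 (-1.57 ± 0.34) and Itgax (-1.695 ± 0.40) were the 4 with the smallest p among those that fell. Of 17 marrow macrophage genes, 2 rose (11.8%, against 20.3% of all genes) and 0 fell. By value 16 of the 17 were higher, with a median of 0.82. Adgre1, the F4/80 antigen, was at 2.43 to 9.06 CPM (median 6.17) in miR-142 KO and 18.6 to 41.98 CPM (median 28.6) in BC CML (2.31 ± 0.51, adjusted p = 0.0013). Cd5l, a secreted protein of macrophages, was at 0.0442 to 1.55 CPM (median 1.24) in miR-142 KO and 1.99 to 18.8 CPM (median 5.29) in BC CML (3.02 ± 0.92, adjusted p = 0.012). The macrophage list summed to 54.5 to 166 CPM in miR-142 KO and 106 to 350.3 CPM in BC CML. The macrophage genes Timd4 (2.01 ± 0.84, adjusted p = 0.061), Cd68 (0.55 ± 0.23, 0.062) and Fcna (1.47 ± 0.90, 0.2) did not pass.

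Genes of lymphoid-primed progenitors fell more often than they rose. Of 19 genes of lymphoid-primed progenitors, 1 was higher and 11 were lower (57.9%), with a median of -0.42. The count of lower genes was 15 without miR-142 KO library 3. It was 8 without miR-142 KO library 1 or BC CML library 1, 2 or 4. Bcl11a, a factor needed for B cell development, was at 175 to 212 CPM (median 191) in miR-142 KO and 126 to 167 CPM (median 142) in BC CML (-0.41 ± 0.08, adjusted p = 3.5e-04), without overlap, and Mef2c was at 263 to 462 CPM (median 359) in miR-142 KO and 231 to 299 CPM (median 249.8) in BC CML (-0.48 ± 0.11, adjusted p = 0.0014). Lsp1 (-0.49 ± 0.10) and the interleukin 12 chain Il12a (-0.58 ± 0.16) fell, and Lat2, an adaptor used by B cells and mast cells, was the 1 that rose, at 80.9 to 118 CPM (median 97.99) in miR-142 KO and 137 to 216 CPM (median 170.3) in BC CML (0.80 ± 0.11, adjusted p = 8.9e-06).

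Of 23 T and NK cell genes, 1 was higher and 10 were lower (43.5%), the 1 being Gzmb. Tcf7, the T cell factor TCF1, was at 11.6 to 15.9 CPM (median 13.8) in miR-142 KO and 5.55 to 11.4 CPM (median 6.78) in BC CML (-0.88 ± 0.20, adjusted p = 0.0015). The NK and T cell factors Eomes (-2.35 ± 0.61) and Tbx21 (-3.21 ± 0.86) fell from low levels. The count of lower genes was 6 without miR-142 KO library 2.

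Of 19 B lineage and plasma cell genes, 3 rose (15.8%) and 4 fell (21.1%), against 20.3% and 19.3% of all genes, although the median was -0.99. The number that rose was 1 without BC CML library 6, and the number that fell was 2 without miR-142 KO library 1 or any 1 of BC CML libraries 1, 2, 4 and 5. Those that fell included the B cell factor Ebf1 (-2.305 ± 0.55) and the kinase Blk (-2.17 ± 0.83, adjusted p = 0.15 without miR-142 KO library 1), and those that rose included the secretory factor Xbp1, at 98.3 to 133 CPM (median 122) in miR-142 KO and 156 to 246 CPM (median 229.7) in BC CML (0.84 ± 0.14, adjusted p = 1.1e-04), and the scaffold Bank1 (0.88 ± 0.29, adjusted p = 0.019, or 0.057 without BC CML library 6). Of 10 stroma and endothelium genes, 0 rose and 2 fell (20%, close to the 19.3% of all genes). The 2 were the chemokine Cxcl12 (-3.27 ± 0.72, adjusted p = 0.0012) and the endothelial receptor Kdr (-1.98 ± 0.42, adjusted p = 9.0e-04). The list summed to 368 to 432 CPM in miR-142 KO and 299.9 to 434 CPM in BC CML. The B lineage list summed to 142 to 204 CPM and 213 to 293 CPM, respectively. The T and NK list summed to 259 to 698 CPM and 550.1 to 829 CPM, with Gzmb included. The part of such cells in the sorted libraries in these results was not tested.

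Interferon-stimulated genes were lower with BCR-ABL. Of 36 tested, 0 were higher and 24 were lower (66.7%), with a median of -1.002. The count depended on the libraries: it was 32 without miR-142 KO library 3, 10 without library 2 and 13 without library 1, and 15 without each of BC CML libraries 2, 4 and 5. Isg20, a ribonuclease that degrades viral RNA, was at 5.79 to 18.9 CPM (median 10.5) in miR-142 KO and 4.14 to 8.62 CPM (median 5.05) in BC CML (-1.06 ± 0.21, adjusted p = 5.3e-04). Ifit2, which blocks translation of viral RNA, was at 28.7 to 71.2 CPM (median 40.9) in miR-142 KO and 21.4 to 40.6 CPM (median 22.7) in BC CML (-0.83 ± 0.17, adjusted p = 6.8e-04). Ifi27l2a was at 0.265 to 8.79 CPM (median 4.88) in miR-142 KO and 0.298 to 2.98 CPM (median 1.16) in BC CML (-1.91 ± 0.50, adjusted p = 0.0045). All 3 overlapped between the groups, and the lowest Ifi27l2a value of miR-142 KO was that of library 3.

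The restriction factor Trim30a (-0.77 ± 0.21) and the GTPase Gbp2 (-0.83 ± 0.23) fell by similar amounts, and Irf7 (5.22 to 81.6 CPM (median 31.4) in miR-142 KO and 5.23 to 34.04 CPM (median 11.03) in BC CML; -1.51 ± 0.46, adjusted p = 0.012, or 0.0565 in a fit of the 12 libraries alone), the factor that amplifies the response, was named after its values were seen. The summed list was at 985 to 3106 CPM in miR-142 KO and 1087 to 2075 CPM in BC CML, with BC CML library 3 the highest of its group. The letters GAAA, any 2 bases and GAAA again, the core of the interferon response element, were in 17 of 32 windows of the list (53.1%, 25 genes) and in 3.44% of all windows. The window of Ifit1 (plus strand, chr19:34640639-34640938) is shown as an example with 2 matches, here on the opposite strand, starting 104 and 85 bases before the start. Ifit1 itself was at 1.06 to 27.9 CPM (median 12.5) in miR-142 KO and 2.25 to 17.7 CPM (median 3.73) in BC CML and did not pass (-1.16 ± 0.54, adjusted p = 0.089).
Ifit1: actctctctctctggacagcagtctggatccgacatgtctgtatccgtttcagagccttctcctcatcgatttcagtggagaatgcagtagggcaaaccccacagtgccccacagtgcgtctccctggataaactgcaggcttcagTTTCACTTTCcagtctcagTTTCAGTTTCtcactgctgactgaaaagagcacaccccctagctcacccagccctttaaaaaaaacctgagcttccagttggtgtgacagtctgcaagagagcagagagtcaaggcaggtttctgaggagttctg

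The cell cycle inhibitors of 1 locus appeared with BCR-ABL. Cdkn2a, which encodes INK4A and ARF (chromosome 4, 89274473 to 89294619), had 1 count over the 6 miR-142 KO libraries and 449 over the 6 of BC CML, where it was at 2.32 to 4.08 CPM (median 3.65). The ratio was 466, with a 95% counting interval of 83.2 to 18440.0. Its neighbour Cdkn2b, which encodes INK4B (89306289 to 89311032), had 0 counts in miR-142 KO and was at 0.656 to 1.36 CPM (median 0.926) in BC CML, at least 44.96-fold higher. Both were detected in all 6 BC CML libraries. Mtap, next to them and named after seeing its value, was expressed in both groups (60.4 to 119 CPM (median 67.5) in miR-142 KO and 93.8 to 119 CPM (median 107) in BC CML; 0.49 ± 0.12).

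Other inhibitors differed less. Cdkn2c was at 32.6 to 42.5 CPM (median 38.4) in miR-142 KO and 23.6 to 33.9 CPM (median 26.3) in BC CML and fell by 0.48 (adjusted p = 4.3e-04). Cdkn1a, the p53 target p21, was at 27.3 to 69.8 CPM (median 43.4) in miR-142 KO and 49.8 to 80.4 CPM (median 52.5) in BC CML (adjusted p = 0.3), and Cdkn1b (-0.25 ± 0.11, 0.067) and Cdkn1c (-0.38 ± 0.21, 0.14) did not pass either. Cdk6, which the INK4 proteins inhibit, fell by 0.26 (adjusted p = 0.0097).

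Cycle genes moved little. Of 37 mitosis genes, 7 were higher (18.9%) and 0 lower, and Aurka, the spindle kinase, was at 68.3 to 79.9 CPM (median 72.9) in miR-142 KO and 91.8 to 113 CPM (median 105) in BC CML (0.49 ± 0.11, adjusted p = 0.0015), without overlap. Plk1 (0.48 ± 0.14) and Kif20a (0.33 ± 0.10) followed with overlap. Of 42 replication genes, 6 were higher and 7 lower. Ccne1, cyclin E1 (0.79 ± 0.16), and Rrm2, a subunit of ribonucleotide reductase (0.54 ± 0.13), rose, while the DNA polymerase subunits Pole (-0.35 ± 0.07) and Pold1 (-0.30 ± 0.06) and E2f1 (-0.21 ± 0.06) fell. These shares lay below those of all genes. Without miR-142 KO library 3 the replication genes that rose numbered 12, without any other miR-142 KO library but 6, or BC CML library 1 or 2, they numbered 3, and without miR-142 KO library 4 those that fell numbered 4. Mitosis genes that rose numbered 4 without miR-142 KO library 5 or BC CML library 2.

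In the BCL2 family, 5 of 16 tested genes were higher (31.2%) and 1 lower (6.25%), against 20.3% and 19.3% of all genes. The killers Bax, at 21.1 to 26.6 CPM (median 22.7) in miR-142 KO and 30.97 to 39.1 CPM (median 35.1) in BC CML (0.59 ± 0.08, adjusted p = 3.9e-06), and Bak1, at 121 to 160.2 CPM (median 129) in miR-142 KO and 166 to 202 CPM (median 182) in BC CML (0.47 ± 0.08, adjusted p = 1.2e-04), rose without overlap, and Bad (0.33 ± 0.08) and Bid (0.21 ± 0.06) rose with overlap. The protector Bcl2 was at 201 to 341 CPM (median 276) in miR-142 KO and 173 to 235 CPM (median 185) in BC CML and fell by 0.48 (adjusted p = 0.0012).

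Most genes of oxidative phosphorylation, the proteasome and the mitochondrial ribosome rose by small amounts. Of 77 tested OxPhos genes, 53 were higher (68.8%) and 0 lower, with a median of 0.24. The summed list was at 6978 to 9209 CPM (median 7409) in miR-142 KO and 8462 to 9489 CPM (median 9166) in BC CML. The highest miR-142 KO sum was that of library 3, and without it 64 of the 77 were higher. The count was 43 without miR-142 KO library 5 or BC CML library 4.

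Ndufa5, of complex I, was at 22.5 to 34.4 CPM (median 24.5) in miR-142 KO and 33.7 to 39.2 CPM (median 38.7) in BC CML (0.52 ± 0.08, adjusted p = 4.1e-05), and Sdhd, of complex II, at 103 to 136 CPM (median 107) in miR-142 KO and 129.6 to 156 CPM (median 151) in BC CML (0.39 ± 0.07, adjusted p = 2.6e-04). Uqcrfs1, of complex III (0.36 ± 0.07), and Cox7a2, of complex IV (0.42 ± 0.08), rose alike. In all 4 the groups overlapped only through miR-142 KO library 3.

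Of 26 TCA cycle genes, 14 were higher (53.8%) and 0 lower, with a median of 0.22. The higher genes numbered 21 without miR-142 KO library 3 and 13 without BC CML library 5 or 6. They were led by Sdhd, Dld (0.38 ± 0.07), Dlat (0.38 ± 0.07) and Idh1 (0.58 ± 0.11). Of 24 genes of glycolysis and lactate transport, 13 were higher (54.2%) and 3 lower. The counts were 16 and 4 without miR-142 KO library 3, and 12 and 2 without library 4. The log2 fold changes ran from -0.52 to 1.62. Pfkp, a phosphofructokinase, was at 68.8 to 98.4 CPM (median 88.4) in miR-142 KO and 126 to 168 CPM (median 158) in BC CML (0.84 ± 0.09, adjusted p = 4.8e-07), and Pgam1 was at 8.53 to 10.7 CPM (median 9.7996) in miR-142 KO and 16.997 to 20.3 CPM (median 17.9) in BC CML (0.91 ± 0.12, adjusted p = 7.9e-06). Aldoa (0.48 ± 0.07) and the neuronal enolase Eno2 (1.62 ± 0.27) rose too, and all 4 were without overlap.

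Fatty acid oxidation did not follow. Of 33 tested genes, 4 were higher (12.1%) and 3 lower (9.09%), against 20.3% and 19.3% of all genes. The median was 0.04, and 5 were lower without miR-142 KO library 3. Cpt1a, which admits fatty acids to mitochondria, was at 234 to 317 CPM (median 292) in miR-142 KO and 240.1 to 292 CPM (median 281) in BC CML (-0.05 ± 0.08, adjusted p = 0.7), and Cpt1b was at 4.597 to 6.08 CPM (median 5.43) in miR-142 KO and 4.67 to 6.72 CPM (median 5.801) in BC CML (0.08 ± 0.12, adjusted p = 0.6). The carnitine transporter Slc22a5 was at 28.5 to 31.2 CPM (median 30.4) in miR-142 KO and 24.2 to 26.8 CPM (median 25.2) in BC CML and fell by 0.25 (adjusted p = 1.4e-04), without overlap. Of 29 genes of cholesterol and fatty acid synthesis, 2 were higher (6.9%) and 4 lower (13.8%), both below the shares of all genes. The lower genes numbered 2 without miR-142 KO library 3 or 5 or BC CML library 5. They numbered 9 without miR-142 KO library 6 and 7 without BC CML library 6. Among the 4 were the master factor Srebf2 (-0.40 ± 0.07, adjusted p = 2.7e-04) and the desaturase Scd1 (-1.31 ± 0.31, adjusted p = 0.0022).

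Of 34 proteasome genes, 30 were higher (88.2%) and 1 lower, with a median of 0.31. The count of higher genes was 31 without miR-142 KO library 3 and as low as 27 with another library left out. Psmc6, an ATPase of the cap, was at 139.8 to 179 CPM (median 147) in miR-142 KO and 180.3 to 218 CPM (median 199) in BC CML (0.40 ± 0.06, adjusted p = 1.8e-05), and Psmb1, of the core, at 133 to 164 CPM (median 140.1) in miR-142 KO and 165 to 183 CPM (median 176) in BC CML (0.29 ± 0.05, adjusted p = 2.7e-04). Both were without overlap, and Psma7 rose by 0.36 ± 0.07. Of 76 genes of the mitochondrial ribosome, 62 were higher (81.6%) and 0 lower, with a median of 0.31. The count of higher genes was 70 without miR-142 KO library 3 and 56 without library 5. The list was led by Mrpl35, at 30.98 to 38.5 CPM (median 31.996) in miR-142 KO and 40.9 to 47.8 CPM (median 44.5) in BC CML (0.43 ± 0.07, adjusted p = 3.2e-05), and Mrps22, at 25.7 to 35.03 CPM (median 29.3) in miR-142 KO and 37.3 to 46.5 CPM (median 40.7) in BC CML (0.48 ± 0.07). In the cytosolic ribosome, 7 of 76 were higher (9.21%) and 4 lower, with a median of 0.05, and the count of higher genes was 19 without miR-142 KO library 3 and 4 without library 5.

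Of 27 genes of ER stress and protein folding, 17 were higher (63%) and 0 lower. The count of higher genes was 19 without BC CML library 3 and 13 without BC CML library 2, 4 or 6. Hspa5, the ER chaperone BiP, was at 799 to 1344 CPM (median 1124) in miR-142 KO and 1286 to 1951 CPM (median 1771) in BC CML (0.63 ± 0.14, adjusted p = 0.0016), and Manf was at 119 to 174 CPM (median 145) in miR-142 KO and 171 to 249 CPM (median 231) in BC CML (0.62 ± 0.12, adjusted p = 6.1e-04). Of 35 antioxidant genes, 17 were higher (48.6%) and 2 lower, or 4 lower without miR-142 KO library 3. Slc7a11, the cystine importer, was at 1.53 to 3.32 CPM (median 2.61) in miR-142 KO and 5.04 to 12.1 CPM (median 11.2) in BC CML (1.99 ± 0.26, adjusted p = 5.9e-06), and the ferritin chain Ftl1 at 80.1 to 108 CPM (median 94.7) in miR-142 KO and 134 to 161 CPM (median 145) in BC CML (0.64 ± 0.10, adjusted p = 3.3e-05). Nfe2l2, which encodes the NRF2 factor of this response, was at 135 to 149 CPM (median 140.1) in miR-142 KO and 160.03 to 174 CPM (median 170.3) in BC CML (0.26 ± 0.04, adjusted p = 6.7e-05). Its textbook target Nqo1 moved the opposite way, at 3.54 to 5.57 CPM (median 4.21) in miR-142 KO and 1.68 to 2.85 CPM (median 2.25) in BC CML (-0.94 ± 0.15, adjusted p = 6.9e-05). These 4 were separate between the groups.

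Of 14 tested genes that the study's text names, 1 was higher (7.14%) and 3 were lower (21.4%), against 20.3% and 19.3% of all genes. Besides Nfe2l2 and Nqo1, Msi2, an RNA-binding protein of stem cells, was at 292 to 404 CPM (median 339) in miR-142 KO and 229.9 to 289.6 CPM (median 262) in BC CML and fell by 0.41 (adjusted p = 0.0032), and the protein kinase Prkca was at 71.5 to 96.6 CPM (median 86.7) in miR-142 KO and 57.1 to 73.6 CPM (median 66.4) in BC CML and fell by 0.38 (adjusted p = 0.0024). The mitofusin Mfn1 (0.08 ± 0.04, adjusted p = 0.14), the neutrophil elastase Elane (0.25 ± 0.36, 0.61) and Hmox1 (0.83 ± 0.71, 0.37) did not pass. Both groups lack miR-142 and only RNA was measured, so these values do not test what the study reports for loss of miR-142.

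**Figure D4:**
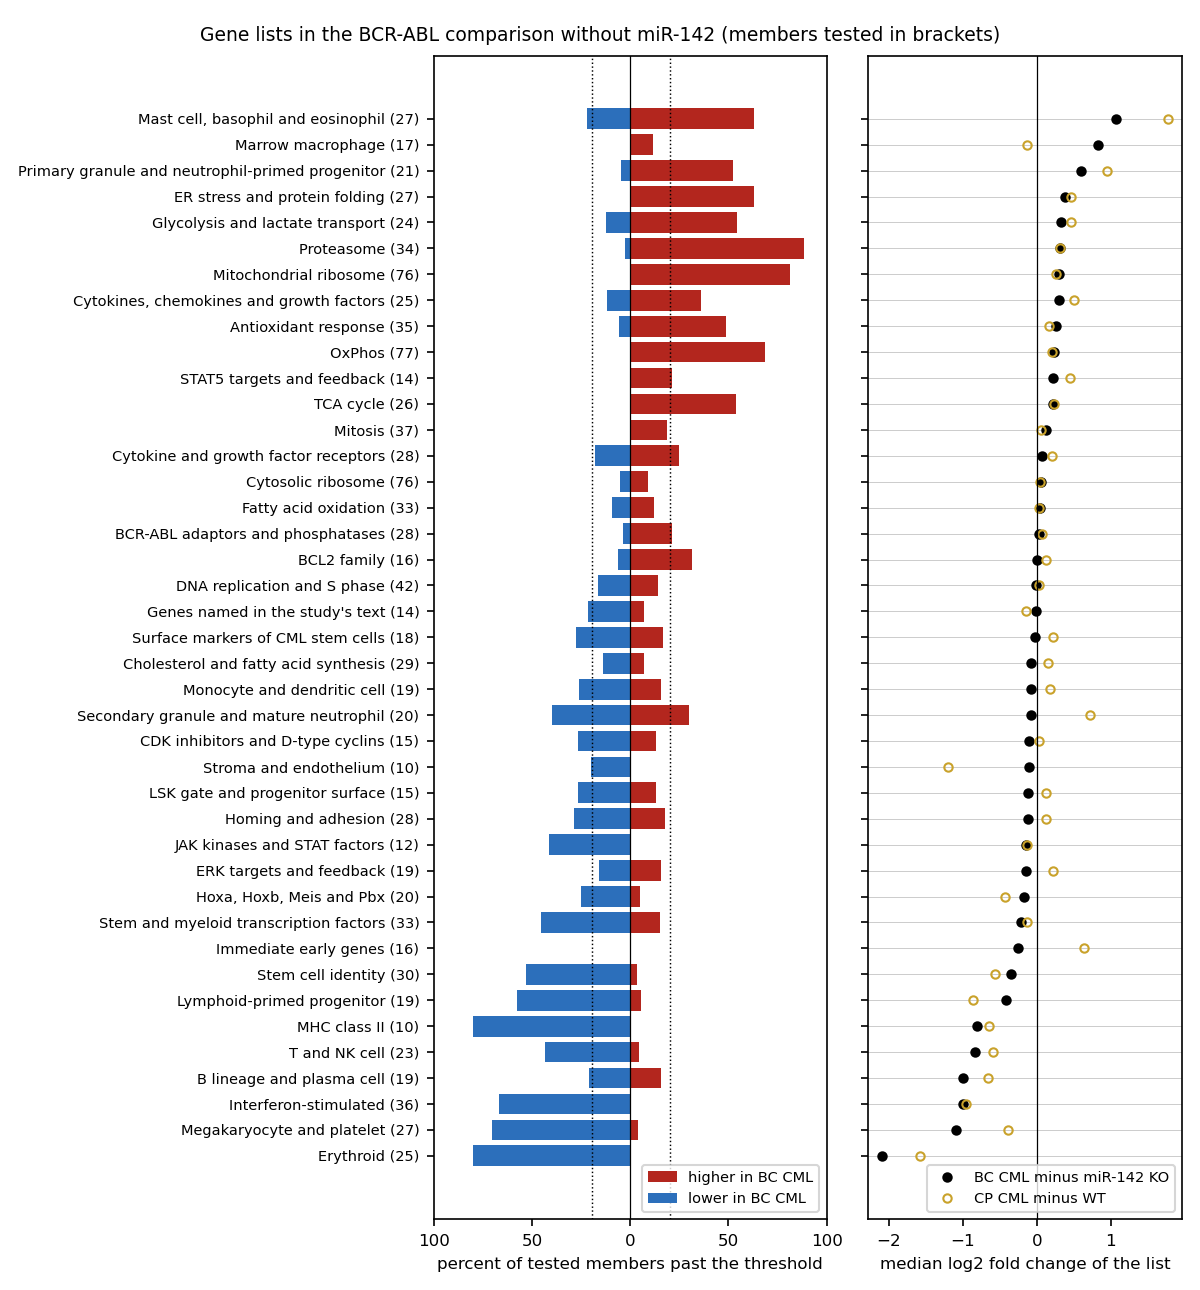
Left, the percent of each list's tested members past an adjusted p of 0.05, higher (red) and lower (blue) in BC CML, with the shares over all genes (20.3% and 19.3%) as dotted lines; right, the median log2 fold change of each list for BC CML minus miR-142 KO (filled) and CP CML minus WT (open). The proteasome and mitochondrial ribosome lists have the highest shares of higher genes, 88.2% and 81.6%, and the erythroid list has the lowest median, -2.09.

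The effect of BCR-ABL without miR-142 was then set beside its effect with miR-142, CP CML minus WT, which shares no library with it. In that comparison 6143 genes passed (45.4%). Across the 13520 genes, which are not independent replicates, the log2 fold changes had a Pearson r of 0.74 and a Spearman rho of 0.69. Of the genes past the threshold without miR-142, 3543 (66.1%) were also past it with miR-142, which is 57.7% of the latter, and 3465 of these had the same direction. The mast cell proteases rose by similar amounts in both: with miR-142 the rise was 7.92 ± 0.47 for Cma1 and 8.12 ± 0.58 for Tpsb2, and the differences were not past the threshold (adjusted p = 0.31 and 0.45).

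The difference between the effects itself was past an adjusted p of 0.05 in 539 genes (3.99%), 258 of them with the more positive effect without miR-142. Ptprg, a receptor tyrosine phosphatase, was at 0.133 to 0.398 CPM (median 0.191) in miR-142 KO and 6.43 to 26.2 CPM (median 16.1) in BC CML, a rise of 6.16 ± 0.35 against 0.57 ± 0.38 with miR-142 (difference 5.59 ± 0.53, adjusted p = 6.6e-07). Ndst3, a heparan sulfate enzyme, rose by 7.52 ± 0.52 against 0.83 ± 0.52 (adjusted p of the difference = 6.3e-05). Sel1l3 (3.05 ± 0.35 against -0.73 ± 0.35, 1.0e-04), the integrin activator Fermt2 (4.27 ± 0.46 against -0.60 ± 0.50, 2.6e-04) and the calcium channel subunit Cacnb4 (7.66 ± 0.58 against 3.64 ± 0.57, 0.036) had the same order. In all 5, every BC CML value was above every miR-142 KO value.

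Among genes with the smaller effect without miR-142, Tph1, which makes serotonin in mast cells, was at 8.09 to 71.1 CPM (median 22.5) in miR-142 KO and 194 to 344 CPM (median 232) in BC CML, a rise of 3.104 ± 0.43 against 9.14 ± 0.71 (difference -6.04 ± 0.89, adjusted p = 3.7e-04). Chil1, a chitinase-like protein, was at most 0.0943 CPM in BC CML and rose by 5.49 ± 0.52 with miR-142 (adjusted p of the difference = 0.0012). The phosphodiesterase Pde3a (-1.01 ± 0.63 against 3.96 ± 0.69, 0.0043) had the same order.

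Several genes described above differed too. The rise of Il1rl1 was 4.73 ± 0.37 with miR-142, where the control level was lower (difference -2.27 ± 0.45, adjusted p = 0.0059). Epx (0.86 ± 0.70 with miR-142, adjusted p of the difference = 0.032) fell without miR-142, as did Ccl5 (-0.80 ± 0.39, 0.021) and Car1 (-2.202 ± 0.54, 0.015) beyond the effect with miR-142. Cd33 rose without miR-142 and had 0.07 ± 0.18 with it (0.014). Cpt1a, Gata2, Itga2b, Hoxa9 and Bcr did not pass without miR-142, but their difference between the effects was past the threshold. On the log2 scale it was -0.45, -0.64, -0.85, 0.56 and 0.40, respectively. For Prg2 the difference missed the threshold (0.059), as it did for Camp (0.08) and Socs2 (0.89). Of the 24 interferon-stimulated genes that fell, and of all 36 tested, 0 had a difference past the threshold.

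**Figure D5:**
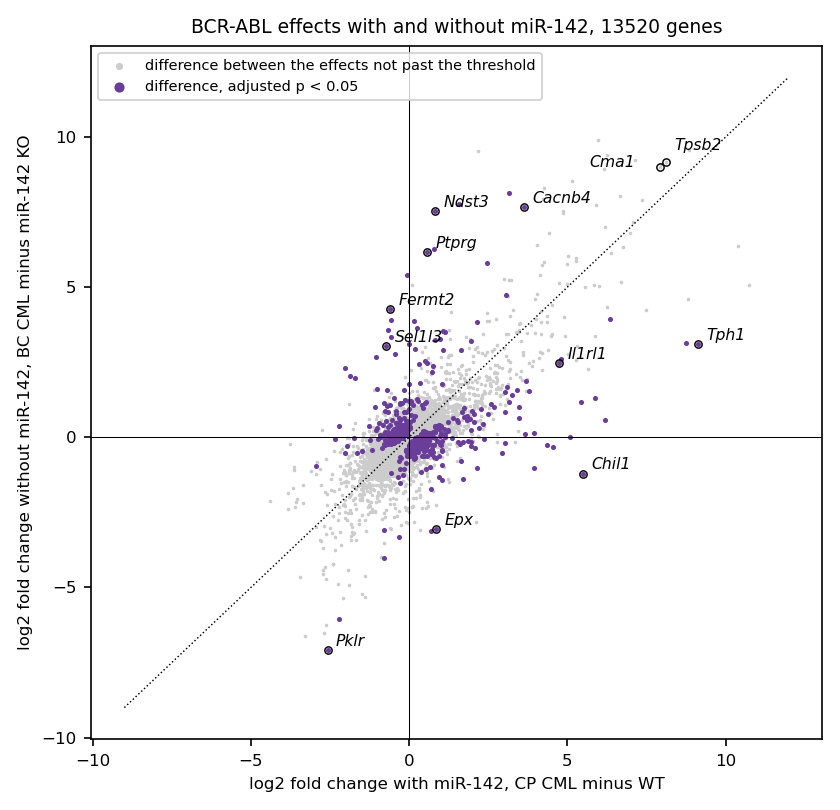
Each point is 1 of the 13520 tested genes, with the log2 fold change CP CML minus WT on the x axis and BC CML minus miR-142 KO on the y axis; purple points have a difference past an adjusted p of 0.05, and the dotted line marks equal effects. Most genes lie near the line, Ptprg, Ndst3, Fermt2 and Sel1l3 lie far above it, and Tph1 and Chil1 far below it.

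The effect was also compared between the sexes. The difference between females and males passed an adjusted p of 0.05 for 1 gene by edgeR, with 862 at an unadjusted p below 0.05. The 1 gene was Tph1, which rose by 2.26 in females and 4.88 in males (difference -2.62 ± 0.39, adjusted p = 0.02). The call was lost in a fit of the 12 libraries alone (adjusted p = 0.10) and without any 1 of miR-142 KO libraries 2 and 5 and BC CML libraries 2, 3 and 5 (adjusted p up to 0.13, without BC CML library 2). In females alone 1712 genes passed and in males alone 3793, with 3 libraries of each group in either case. miR-142 KO library 3 is a female. The median of the erythroid list was -1.94 in females and -2.21 in males, that of the mast cell, basophil and eosinophil list 1.03 and 1.18, and that of the interferon-stimulated list -0.88 and -1.02.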

How the data were processed

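Bulk RNA-seq of 24 LSK libraries was used, 6 per genotype label. Per the submitters' processing notes and the study's methods, libraries from poly(A) RNA (Kapa mRNA HyperPrep) were trimmed with Trimmomatic, mapped to mm10 with STAR 2.6.0 and counted per gene with HTSeq 0.11.1. The annotation and strand setting are not given in the sources used here, so overlapping antisense genes and near-identical copies may share reads. The deposited values are raw counts per gene, not normalized by the authors. A deposited column of gene lengths was not used.

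Genes with too few counts were removed by filterByExpr, libraries were scaled by TMM, and all 24 libraries were fitted in 1 model with a mean per group in edgeR 4.0.16 (R 4.3.3, limma 3.58.1), so that the groups share an estimate of the spread. The quasi-likelihood test with Benjamini-Hochberg adjustment over the 13520 genes tested was used, two-sided, at 0.05. The difference between BCR-ABL effects was a contrast of the 4 groups, and the difference between sexes a contrast in a model of group and sex. CPM were computed with edgeR on TMM-scaled totals. Totals were 20206360 to 24687077 in the 12 libraries compared, and a count of 0 allows 3 counts; intervals are exact, at 95%, and cover counting error only. The main edgeR fit was tested on simulated counts with known fold changes, and the other steps were not.

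Genes were named by a rule: checks of the labels, 15 each way with the largest changes among those past the threshold, without overlap and with a mean of at least 1 CPM, 5 or fewer per list by smallest p (all members of lists of up to 15), 5 each way for the difference between effects, any for the sex difference, and genes the study names. Some genes that the rule names are not reported here. The comparison, the lists and the rule were chosen with earlier results of these data known. Lists are described by their counts and medians without a test. Symbols of promoters and microRNAs were matched to RefSeq (GRCm38.p6). The alternatives were the likelihood ratio test, DESeq2 1.42.0, RLE and upper quartile scaling, other filters, sex as a covariate, calls kept only from an absolute log2 fold change of 1, the 12 libraries alone, each library left out, and, chosen after seeing the data, each sex alone.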

Additional observations from a re-analysis of the deposited data

Results flagged for a closer look

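Of 520 groups of 6 values tested (each named gene and each list sum in miR-142 KO and in BC CML), 60 had a highest or lowest library whose gap to its neighbour passed Dixon's limit at the 95% level, as a share of the whole range. Chance gives about 1 in 20 groups such a gap, and many of these genes and lists share the same libraries. Values are in CPM.

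miR-142 KO library 3 stood apart in 26 of them. It was highest in Bak1 (160.2), Ccne1 (24.5), Dlat (99.4), Dscam (3.23), Grin2c (0.0442), Mcpt1 (3.41), Mrpl35 (38.5), Mtap (119), Ndufa5 (34.4), Psma7 (209), Rrm2 (199.7), Scd1 (2.70), Sdhd (136), Trem1 (18.5) and Uqcrfs1 (125), and lowest in Cdkn1b (109) and Mpo (1397). Among the list sums, it was highest for DNA replication and S phase (8567), OxPhos (9209), Glycolysis and lactate transport (4248), TCA cycle (4969), Mitochondrial ribosome (3450.5) and Proteasome (5397), and lowest for LSK gate and progenitor surface (4619.7), Primary granule and neutrophil-primed progenitor (6683) and Genes named in the study's text (1898). The cause was not tested.

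BC CML library 3 was highest in Car1 (2.22), Cdkn2c (33.9), Gbp2 (49.6), Gdf3 (7.36), Ifit1 (17.7), Ifit2 (40.6), Irf7 (34.0), Isg20 (8.62), Klf1 (1.82), Stat5b (213) and Trim30a (95.9) and in the sum of Interferon-stimulated (2075), and lowest in Idh1 (148) and Nfe2l2 (160.03). BC CML library 5 was highest in Dusp6 (63.6), Osm (110.0), S100a9 (9.70), Scd1 (1.06) and Socs3 (175), highest in the sums of STAT5 targets and feedback (1985), ERK targets and feedback (1948), Cytokines, chemokines and growth factors (1677) and Megakaryocyte and platelet (1996), and lowest in the sum of Mitosis (6537).

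BC CML library 1 was highest in Mcpt4 (895) and Tgfbr1 (253). BC CML library 6 was highest in Bcr (147) and Prg3 (9.92). miR-142 KO library 1 was highest in Ccl7 (0.0442). miR-142 KO library 2 was highest in Cdkn2a (0.0442), Hbb-bs (5.39), Ptprg (0.398) and Tpsb2 (10.5). miR-142 KO library 5 was highest in Mab21l1 (0.0410). For Ccl7, Cdkn2a, Grin2c and Mab21l1 the miR-142 KO value is a single count in 1 library.

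The effect of BCR-ABL differed between libraries without and with miR-142 in 34 of the named genes, by edgeR's quasi-likelihood test of the difference at an adjusted p below 0.05. Some of these differences are in the report, and the others are given only here. On the log2 scale (effect without miR-142 minus effect with it), the difference was positive for Ndst3 (6.69), Mab21l1 (6.17), Ptprg (5.59), Grin2c (4.98), Fermt2 (4.86), Cacnb4 (4.02), Sel1l3 (3.77), Cdh2 (3.37), Bank1 (1.66), Cd33 (1.14), Hoxa9 (0.56) and Bcr (0.40). It was negative for Chil1 (-6.70), Tph1 (-6.04), Pde3a (-4.97), Pklr (-4.50), Epx (-3.91), Car1 (-3.83), S100a9 (-3.01), Ccl5 (-2.29), Il1rl1 (-2.27), Scd1 (-2.26), Lcn2 (-2.18), Hp (-1.84), Ehd3 (-1.22), Ccnd1 (-0.85), Itga2b (-0.85), Fcgr2b (-0.83), Mitf (-0.77), Gp9 (-0.76), Gata2 (-0.64), Prkca (-0.51), Cpt1a (-0.45) and Cdk6 (-0.38). Of these, Ndst3, Ptprg, Fermt2, Cacnb4, Sel1l3, Chil1, Tph1 and Pde3a were named for this difference, so the count is not to be read against the 3.99% of all tested genes that passed the same test.

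The effect on Tph1 differed between the sexes by -2.62 on the log2 scale (females minus males), the only such gene of 13520 by this test.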

How the results depend on the processing

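For the named genes, no alternative turned a direction past the threshold, with each sex alone not checked. The count of genes between BC CML and miR-142 KO was 828 among changes of at least 1 on the log2 scale and 1712 in females alone; it ranged from 4542 (without BC CML library 1) to 6471 (without miR-142 KO library 3) with 1 library left out. Upper quartile scaling shifted the median of all genes from -0.02 to -0.05 and the share of higher calls from 51.3% to 43.2%. The difference between the BCR-ABL effects was called in 891 genes by DESeq2 and in 375 to 787 with 1 library left out, and CP CML against WT in 5348 to 6250. The sex difference was called in 18 genes by the likelihood ratio test, 15 by DESeq2, 3 with no filter, and 0 to 5 with 1 library left out. List medians moved beyond their spread in 2 cases: the B lineage and plasma cell list ranged from -1.24 (without miR-142 KO library 3) to -0.85, and the stroma and endothelium list from -0.78 (without BC CML library 3) to -0.020. Of 185 called genes named, 14 lost the call in at least 1 of the alternatives checked gene by gene. The limit of 1 on the log2 scale and each sex alone were not among those. The replicate numbers were given in accession order and pair no samples, so no paired analysis was possible because the labels carry no shared number. A lone library can move list counts as given beside them, genes at 0 in miR-142 KO are limited by depth to bounds, and the cause of these shifts was not tested.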
